A study of Mus musculus with 18 samples.

Results

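The genes encoding the proteasome, the protease complex that degrades most ubiquitin-tagged proteins, were compared across 3 dendritic cell populations of the mouse spleen. Members were all probe sets of the 3 array types whose platform annotation gave 1 gene symbol beginning with Psma, Psmb, Psmc, Psmd or Psme and a number, leaving out Psmb8 and Psmb9. This gave 71 of 36701 probe sets (51 on U74A, 5 on U74B and 15 on U74C), and they belonged to 42 of the 15964 genes named by a single symbol. Testing needed a signal of at least 60 in 2 or more of the 6 samples, and 57 member probe sets of 39 genes met this. The rule itself reads gene symbols, although it was set with earlier results of these data known. The rule also took in Psmc3ip, a meiotic recombination factor, and Psme3ip1, a binding partner of Psme3, which are not subunits. Psme2 is absent from the members because each of its 3 probe sets carried 2 symbols.

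The populations were IKDC, the interferon-producing killer dendritic cells, PDC, the plasmacytoid form, and cDC, the conventional form, which the submitters used as their control. Each was represented by 2 spleen samples that were prepared separately, and every sample was hybridised to the Affymetrix array types U74A, U74B and U74C, which makes 18 arrays. No genotype, treatment, strain, age or sorting scheme is given in the sources used here, so the labels tell the 3 populations apart by name only. With 2 samples per population, the p-values rest on the spread within populations, part of which may be technical. That spread was pooled over the 3 populations and moderated toward that of probe sets of similar signal. It is thus not the spread of the 2 compared populations alone.

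The proteasome consists of a barrel-shaped core, in which outer rings of alpha subunits gate the entrance and inner rings of beta subunits carry the catalytic sites, and of a regulatory cap. The base of the cap holds a ring of ATPases that unfold substrates, and its lid removes ubiquitin. In cells exposed to interferon the catalytic subunits are exchanged for those of the immunoproteasome, which favours peptides that fit major histocompatibility complex class I, a process central to antigen presentation by dendritic cells. In mammals Nfe2l1 is known to raise transcription of most subunit genes together when proteasome activity falls short, through antioxidant response elements in their promoters.

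Promoter sequences from RefSeq (GRCm38.p6, 250 bases before to 50 after the annotated start) were found for 35 of the 42 genes. The core of the antioxidant response element, written TGACNNNGC and searched on both strands, was present in a promoter of 6 of these 35 genes, 17.1%. It was present in 12.4% of 32851 promoters of the same 300-base length, a share counted per promoter and not per gene. The 6 windows are shown because they are the member promoters that hold the element searched for. Each has up to 20 bases on either side, with the element in capitals and the gene's sense strand written 5′ to 3′. In Psmc6, Psmd12 and Psme4 the element lies on the opposite strand, so the capitals are its reverse complement.
Psmb5 (chr14:54618014-54618062, minus strand): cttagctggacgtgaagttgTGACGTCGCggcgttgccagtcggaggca
Psmb6 (chr11:70525328-70525376, plus strand): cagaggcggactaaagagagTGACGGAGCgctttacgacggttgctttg
Psmc6 (chr14:45329577-45329625, plus strand): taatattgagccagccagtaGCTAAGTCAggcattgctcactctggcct
Psmd9 (chr5:123228139-123228187, plus strand): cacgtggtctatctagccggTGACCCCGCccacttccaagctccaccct
Psmd12 (chr11:107479278-107479309, plus strand): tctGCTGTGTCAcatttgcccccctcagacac
Psme4 (chr11:30771748-30771796, plus strand): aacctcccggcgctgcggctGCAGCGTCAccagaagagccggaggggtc
A match is a description of letters, and none of these 6 genes passed the test in any comparison. The element began within 50 bases of the annotated start in Psmb5, Psmb6, Psmd9 and Psme4, and over 200 bases before it in Psmc6 and Psmd12.

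The deposited values are signals that the authors scaled to a mean of 150 on every array, so a difference is relative to the average transcript. Array medians were 51.7 to 87.3. The summed signal of 8 natural killer cell genes was 47770 and 53490 in IKDC, 5283 and 3920 in PDC, and 3134 and 4082 in cDC. Among 8 conventional dendritic cell markers the sum was 6146 and 4648 in IKDC, 24880 and 24060 in PDC, and 48800 and 41960 in cDC. H2-Ab1, H2-Aa, Cd74 and Flt3 followed this order. Cd8a and Zbtb46 were under 60 in both IKDC samples, and Zbtb46 also in both PDC samples. Itgax, which encodes CD11c, did not follow the sum, with 1248.9 and 1358.9 in IKDC, 238.4 and 338.7 in PDC, and 1556.1 and 2614.2 in cDC. Of the 7 plasmacytoid markers listed, the 6 measured summed to 8548 and 9735 in IKDC, 49130 and 56120 in PDC, and 11490 and 11770 in cDC. Transcripts of other cells also moved with the groups: the sum of 5 measured erythroid genes out of 8 was 14790 and 17510 in IKDC, 22920 and 9956 in PDC, and 1162 and 2044 in cDC, with none under 60 throughout. Most of the IKDC and PDC sums came from Hba-a1. Hba-a1, Car2, Alas2 and Klf1 were each lowest in the cDC samples, Car2 was highest in IKDC, and Slc4a1 was level (308.6 to 384.3). The sums for 6 of 7 B and plasma cell genes (5476 and 2921 in IKDC, 8625 and 8813 in PDC, 1785 and 1803 in cDC), for 3 of 6 T cell genes (603.8 to 928.3, 329.9 to 393.8 and 93.8 to 225.4 in the same order) and for 7 macrophage genes (522.2 to 574.4, 2231 to 2461 and 5068 to 5181) differed as well. Members of a list did not all follow its sum. Ighm made up most of the B and plasma cell sum in PDC (6273.3 and 6534.2). Ighm, Jchain and Xbp1 were highest in a PDC sample, and Cd79a, Cd79b and Ms4a1 in IKDC replicate 1. Cd3d of the T cell list overlapped between all 3 populations. Of the macrophage list Cd68 was highest in PDC (1335.8 and 1944.0, against 806.1 and 845.5 in cDC), and C1qb in PDC replicate 1 (329.2). Lyz2, Csf1r, Adgre1, C1qa and C1qc were highest in cDC. The part of these other cell types in the results below was not tested. In these bulk samples fewer cells of a type and less RNA per cell cannot be told apart.

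Few proteasome transcripts differed measurably between the 3 populations. Of the 39 genes tested, each taken by its brightest probe set, 35 had an estimated difference under 1 log2 unit, or 2-fold on the scale of log2(signal + 16), in IKDC versus cDC. This was 89.7% of them, against 81.0% of all 12193 genes tested. The number was also 35 in each of the other 2 comparisons, against 84.8% of all genes in PDC versus cDC and 84.1% in IKDC versus PDC, with a different set of 4 genes beyond that size each time. With all genes fitted together in limma and p-values adjusted over 23285 probe sets, 1 of 57 member probe sets passed in IKDC versus cDC (1.75%), against 5.6% of all probe sets. It belonged to Psmc3, a subunit of the ATPase ring. In PDC versus cDC 0 of 57 passed in limma, against 3.65% of all probe sets. In IKDC versus PDC 0 of 57 passed in limma, against 4.45% of all. At an unadjusted limma p under 0.05 the member counts were 9 (15.8%), 3 (5.26%) and 4 (7.02%) in that order, against 18.9%, 14.9% and 14.5% of all probe sets.

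A missed threshold does not show equal levels, so the intervals were read as well. The whole 95% interval of the difference lay within 1 log2 unit of 0 for 22 of 57 members (38.6%) in IKDC versus cDC, against 17.5% of all probe sets. The same held for 26 members (45.6%) in PDC versus cDC, against 20.5%, and for 29 members (50.9%) in IKDC versus PDC, against 19.8%. For the remaining members the interval reached a 2-fold difference or more in at least 1 direction. Member intervals were also narrower, with a median SE of 0.328 log2 units against 0.431 over all probe sets. The median absolute difference of the members was 0.38 in IKDC versus cDC, 0.28 in PDC versus cDC and 0.22 in IKDC versus PDC, against 0.47, 0.40 and 0.41 over all probe sets.

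Direction was mixed in the comparisons with cDC. In IKDC versus cDC 29 member probe sets had a positive and 28 a negative difference, with a median of 0.056 log2 units against −0.013 for all probe sets; with quantile normalization the member median was −0.039. Both IKDC samples stood above both cDC samples for 18 members (31.6%, against 24.9% of all) and below both for 13 (22.8%, against 26.7%). In PDC versus cDC 27 differences were positive and 30 negative, and the median was −0.018 against −0.0099 for all, and 0.0034 with quantile normalization. There 11 members had both PDC samples above both cDC samples (19.3%, against 20.5% of all), and 14 had both below (24.6%, against 20.8%). In IKDC versus PDC 35 differences were positive and 22 negative, the most uneven split of the 3, and the median was 0.16 against −0.016 for all. That median was 0.094 with quantile normalization, and 0.0087 without PDC replicate 1. Both IKDC samples were above both PDC samples for 12 members (21.1%, against 21.7% of all) and below for 6 (10.5%, against 21.9%). Comparisons that share a population share its arrays and are not independent of each other.

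**Figure D1:**
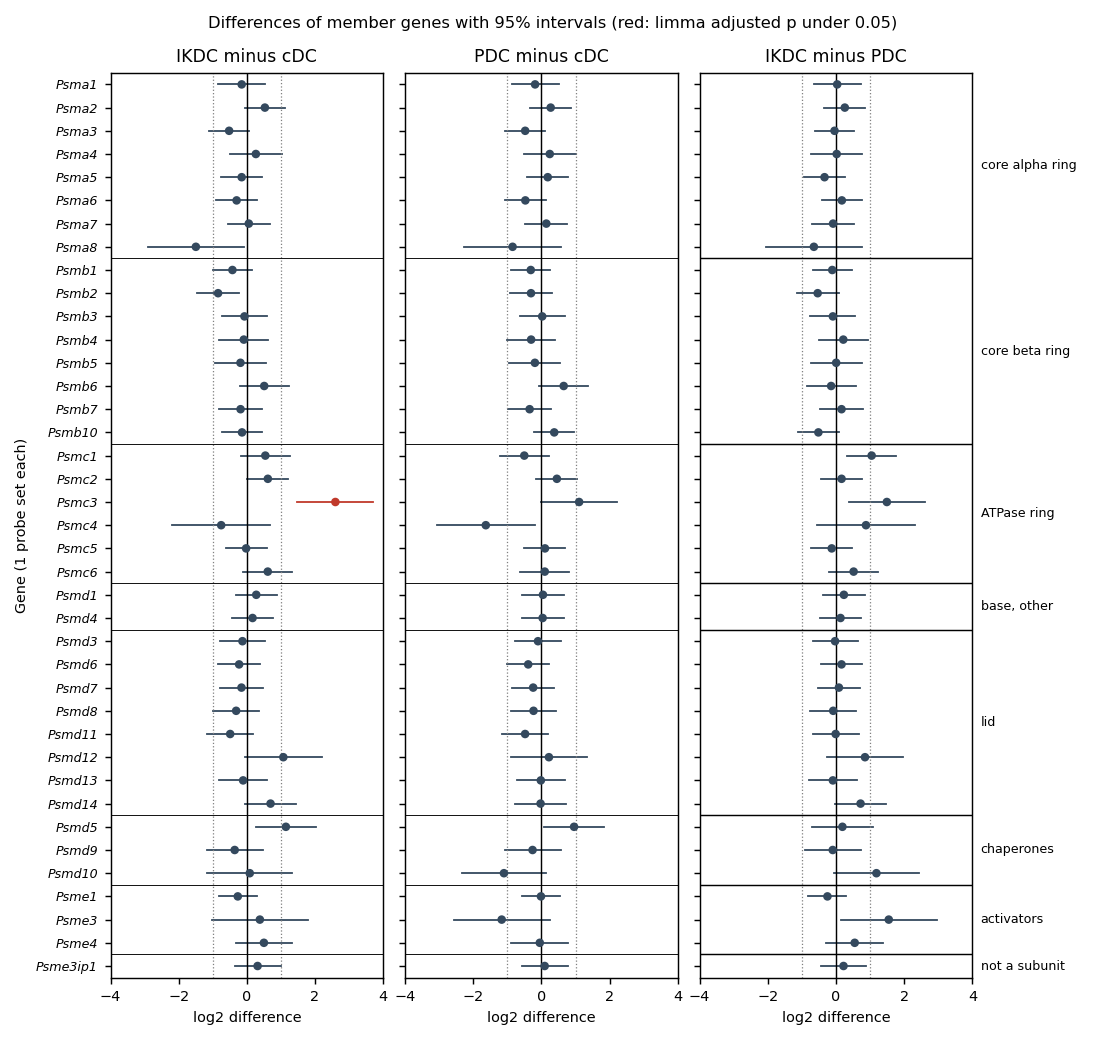
Log2 differences of the 39 tested member genes (x axis, log2 units; 1 probe set per gene, by role down the y axis) in IKDC minus cDC, PDC minus cDC and IKDC minus PDC, with 95% limma intervals as bars and dotted lines at 1 log2 unit either side of 0. Most points lie between the dotted lines, and Psmc3 in IKDC minus cDC, at 2.60, is the only red point, which marks an adjusted p under 0.05.

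The alpha subunits form the outer rings of the core and its gate. None of their 11 tested probe sets passed in any comparison. Over all probe sets 5.6% passed in IKDC versus cDC, 3.65% in PDC versus cDC and 4.45% in IKDC versus PDC. A count of 0 in 11 is near these shares, and counts in the other groups below are read the same way. Some intervals reached past 1 log2 unit, as for Psma2 in IKDC minus cDC (95% interval −0.07 to 1.12). Over the 8 genes the median difference was −0.15 log2 units in IKDC versus cDC, with 3 genes above and 5 below 0. It was −0.022 in PDC versus cDC and −0.012 in IKDC versus PDC (0.0058 with quantile normalization), with 4 genes on either side in both. Psma7 had signals of 452.4 and 391.8 in IKDC, 394.9 and 508.0 in PDC, and 447.3 and 365.4 in cDC, so that all 3 populations overlapped. Its difference in IKDC minus cDC was 0.056 (95% interval −0.56 to 0.67). Psma3 had signals of 2727.0 and 2473.8 in IKDC, 2360.9 and 3036.4 in PDC, and 3802.2 and 3665.6 in cDC on its brightest probe set. There cDC stood above all other samples (IKDC minus cDC −0.52, limma adjusted p = 0.323), but the other 2 probe sets of Psma3 gave 0.10 and 0.47. The widest difference in this group, −1.50 (limma adjusted p = 0.234), came from Psma8, known as a testis form of an alpha subunit. Its signals were 24.6 and 117.6 in IKDC, 90.5 and 109.3 in PDC, and 200.3 and 183.5 in cDC on U74C. Unspiked bacterial control probe sets reached 148.7 on that array type, so only the cDC signals exceeded what absent transcripts gave there.

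The beta subunits include the 3 that cut peptide bonds: Psmb5 with chymotrypsin-like, Psmb6 with caspase-like and Psmb7 with trypsin-like specificity. Over 8 tested beta genes the median was −0.16 log2 units in IKDC versus cDC (1 gene above and 7 below 0), −0.25 in PDC versus cDC (3 above, 5 below) and −0.10 in IKDC versus PDC (3 above, 5 below). None of the 11 probe sets passed in any comparison, against 3.65% to 5.6% of all probe sets. Psmb11, the thymus-specific form, had no tested probe set.

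Psmb5 had signals of 1610.6 and 976.8 in IKDC, 1237.6 and 1264.7 in PDC, and 1053.3 and 1943.8 in cDC on its U74B probe set. The populations overlapped fully, with IKDC minus cDC at −0.19 (95% interval −0.94 to 0.56). A second probe set, on U74A, gave 376.8 and 400.9 in IKDC, 221.0 and 402.0 in PDC, and 186.5 and 317.3 in cDC, with IKDC above cDC by 0.64 (limma adjusted p = 0.369). The remaining one gave 63.7 and 79.7 in IKDC, 142.5 and 83.9 in PDC, and 133.6 and 157.4 in cDC, with IKDC below cDC (−0.88, limma adjusted p = 0.198). The direction for Psmb5 therefore depended on the probe set.

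Psmb6 had signals of 318.9 and 237.3 in IKDC, 369.5 and 252.6 in PDC, and 231.5 and 153.4 in cDC. Both cDC samples were the lowest of the 6, but the gap was small beside the spread within populations. Psmb6 differed by 0.51 in IKDC minus cDC (95% interval −0.21 to 1.23, limma adjusted p = 0.447) and by 0.65 in PDC minus cDC (limma adjusted p = 0.398). Psmb7 had signals of 313.2 and 272.2 in IKDC, 261.5 and 257.3 in PDC, and 281.6 and 396.1 in cDC. PDC were the lowest 2 samples, with PDC minus cDC at −0.35 (95% interval −0.98 to 0.29) and IKDC minus cDC at −0.19.

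Psmb10 encodes the immunoproteasome subunit that takes the place of Psmb7. Its signals were 1266.0 and 1029.7 in IKDC, 1872.5 and 1438.4 in PDC, and 1306.6 and 1219.0 in cDC. Both PDC samples were above the 4 others, while IKDC and cDC overlapped. The difference was −0.14 in IKDC minus cDC (95% interval −0.74 to 0.45), 0.38 in PDC minus cDC (limma adjusted p = 0.615) and −0.52 in IKDC minus PDC (limma adjusted p = 0.432).

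Of the immunoproteasome genes that lie outside the members, 1 passed, and the difference between them was not tested. Psmb9, which takes the place of Psmb6, had signals of 482.8 and 545.1 in IKDC, 706.1 and 787.6 in PDC, and 1048.3 and 1178.2 in cDC. The 3 populations did not overlap, and Psmb9 fell by 1.09 ± 0.26 log2 units (SE) in IKDC relative to cDC (limma adjusted p = 0.032). PDC were between the others without passing against either (−0.57 in PDC minus cDC, −0.53 in IKDC minus PDC). Psmb8, which takes the place of Psmb5, had signals of 2544.3 and 1966.2 in IKDC, 2633.1 and 2799.8 in PDC, and 2677.5 and 2668.2 in cDC (IKDC minus cDC −0.26, limma adjusted p = 0.663). Of this list of 2 genes, 1 was lower in IKDC than in cDC and none passed in the other comparisons.

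The exchange partners were also set against each other within samples. The log2 ratio of Psmb9 to Psmb6 was 0.575 and 1.15 in IKDC, 0.905 and 1.58 in PDC, and 2.1 and 2.82 in cDC. It was lower in both IKDC and both PDC samples than in both cDC samples, by 1.60 in IKDC and 1.22 in PDC on average. An exact two-sided permutation test gave p = 0.333 for each, the smallest value that 2 samples against 2 allow. The log2 ratio of Psmb10 to Psmb7 was 1.96 and 1.86 in IKDC, 2.77 and 2.41 in PDC, and 2.15 and 1.58 in cDC. There IKDC lay within the cDC range, and both PDC samples were above it, by 0.72 on average (exact permutation p = 0.333). Each ratio is of signals on 2 probe sets, so only its change between samples can be read. For Psmb8 and Psmb5 the ratio changed sign with the U74A probe set of Psmb5 (−0.89 and 0.63 in IKDC minus cDC), and no direction is given. The brighter U74B probe set of Psmb5 was not used in this ratio.

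Psmb2 and Psmb1 are structural subunits of the beta rings. Psmb2 was measured by 1 probe set. The Psmb2 signals were 297.7 and 349.2 in IKDC, 552.8 and 408.6 in PDC, and 597.4 and 586.3 in cDC, with no overlap between populations (IKDC minus cDC −0.84 ± 0.28, limma adjusted p = 0.118). Psmb1 showed opposite patterns on 2 probe sets of the same array type. One gave 689.6 and 535.6 in IKDC, 507.2 and 543.6 in PDC, and 339.6 and 288.7 in cDC, with IKDC above cDC by 0.92 ± 0.27 (limma adjusted p = 0.0836). The other, which was brighter, gave 524.5 and 477.6 in IKDC, 567.2 and 517.4 in PDC, and 677.7 and 676.1 in cDC, with IKDC below cDC (−0.42, limma adjusted p = 0.423). Neither passed, and Psmb1 has no settled direction. Members given with values, other than Psmb5, Psmb6, Psmb7, Psmb10, Psmc3 and Psme1, were chosen for description after their values were seen.

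The ATPase ring, 6 related subunits that pull substrates into the core, had the widest medians among the member roles in both comparisons of IKDC. The median of its 6 genes was 0.58 log2 units in IKDC versus cDC (4 genes above and 2 below 0), 0.10 in PDC versus cDC (4 above, 2 below) and 0.70 in IKDC versus PDC (5 above, 1 below). These medians include Psmc4, from which no size is read below, and a U74C probe set of Psmc3 that its other sets did not match. The ranking is therefore uncertain, with the activators next at 0.55 in IKDC versus PDC. Of 12 tested probe sets of the ATPase ring 1 passed, in IKDC versus cDC, where 5.6% of all probe sets passed. Relative to the mean of the 6 samples, the median level of the 6 genes was 0.56 and 0.29 in IKDC, −0.61 and 0.15 in PDC, and −0.40 and 0.076 in cDC. Both IKDC samples were the highest, PDC replicate 1 and cDC replicate 1 were low, and their partners lay between. The ratio of 3' to 5' signal of the Gapdh control on U74A, which rises with RNA breakdown and with shortening in amplification, was 3.34 and 3.59 in IKDC, 6.0 and 3.19 in PDC, and 4.74 and 4.13 in cDC. It was thus highest in PDC replicate 1 and cDC replicate 1, the same 2 samples that were low for this ring, and its part in the result was not tested. Smaller groups varied nearly as widely, from −0.74 to 0.40 over the samples for the 3 activators and from −0.35 to 0.75 for the 3 chaperones.

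**Figure D2:**
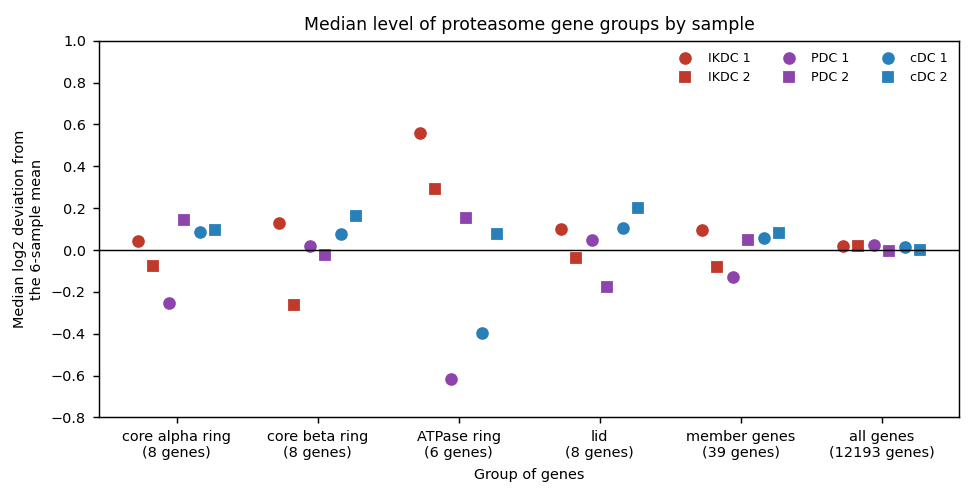
Median deviation from the 6-sample mean (y axis, log2 units) of gene groups (x axis, number of genes below each name) in each sample, with circles for replicate 1 and squares for replicate 2. The samples lie within about 0.3 of 0 for the core rings, the lid and the 39 member genes, and spread from −0.61 to 0.56 for the ATPase ring; groups of 2 or 3 genes are not drawn.

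Psmc3, an ATPase of the base ring, had the single call among the members. On its U74C probe set the signals were 1003.4 and 951.9 in IKDC, 175.4 and 636.3 in PDC, and 156.4 and 140.5 in cDC. The IKDC samples were close together and far above cDC, and the PDC samples spread over the gap between them. Psmc3 rose by 2.60 ± 0.50 log2 units (SE; 95% interval 1.48 to 3.71) in IKDC relative to cDC on this probe set (limma adjusted p = 0.0123). The difference was 1.11 in PDC minus cDC (limma adjusted p = 0.339) and 1.49 in IKDC minus PDC (limma adjusted p = 0.166). The cDC signals lay near the 148.7 reached by unspiked bacterial controls on U74C.

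The 4 other probe sets of Psmc3 did not show this change. One of the 3 on U74A had 376.4 and 283.7 in IKDC, 267.1 and 325.1 in PDC, and 178.7 and 235.4 in cDC, a difference of 0.63 in IKDC minus cDC (95% interval −0.02 to 1.29). Both IKDC samples were above both cDC samples there, at a smaller distance. Differences on the remaining 3 were 0.47 and −0.097 on U74A and 0.12 on U74C, and none passed in any comparison. Their intervals reached at most 1.55, below the estimate on the U74C probe set that passed and overlapping the lower end of its interval. The suffixes f and i mark designs with fewer gene-specific probes. Whether these sets take up related transcripts was not tested. The same is true of sets with the suffix r, such as the U74C set of Psme4 and the brightest set of Ubqln1 below. The brightest probe sets of Psma3, Psma8, Psmb4, Psmb5, Psmb7, Psmd10 and Psmd12 carry the same suffixes, so this limit is not particular to Psmc3. The call ended when either IKDC sample (limma adjusted p = 0.105 without replicate 1, 0.0922 without replicate 2) or either cDC sample was left out (0.0758 and 0.0885). It also ended without the intensity trend in the variance (0.071).

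Among the other ATPases, Psmc2, Psmc6 and Psmc1 had both IKDC samples above both cDC samples without passing. Psmc2 had signals of 864.5 and 846.0 in IKDC, 649.0 and 895.0 in PDC, and 512.2 and 596.5 in cDC (IKDC minus cDC 0.62 ± 0.28, limma adjusted p = 0.254). Psmc6 had 1197.5 and 1156.1 in IKDC, 639.6 and 1045.1 in PDC, and 594.2 and 980.5 in cDC (0.61 ± 0.33, limma adjusted p = 0.351). For Psmc6 the low samples were again replicate 1 of PDC and of cDC. Psmc1 had 416.7 and 317.5 in IKDC, 141.4 and 199.4 in PDC, and 193.9 and 308.7 in cDC, with its widest gap in IKDC minus PDC (1.04 ± 0.33, limma adjusted p = 0.124). Psmc5 was nearly level, with 246.7 and 249.0 in IKDC, 268.5 and 275.4 in PDC, and 240.6 and 263.9 in cDC on its U74A probe set (IKDC minus cDC −0.023, 95% interval −0.62 to 0.58). Psmc4 was measured by 1 tested U74C probe set, with 189.4 and 48.9 in IKDC, 47.3 and 46.3 in PDC, and 221.2 and 143.8 in cDC (limma adjusted p = 0.267 in PDC versus cDC). It reached 60 on only 3 of 6 arrays, and only 1 IKDC and 1 cDC signal exceeded the 148.7 of the bacterial controls, so no size is read from it.

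Psmd1, a scaffold of the base, and Psmd4, a ubiquitin receptor, were the tested non-ATPase subunits of the base. Psmd1 had signals of 645.3 and 714.3 in IKDC, 677.0 and 490.1 in PDC, and 523.5 and 595.6 in cDC (IKDC minus cDC 0.27, 95% interval −0.33 to 0.88). Psmd4 had 777.9 and 534.9 in IKDC, 581.5 and 593.7 in PDC, and 584.7 and 562.0 in cDC on its brightest probe set (IKDC minus cDC 0.17, 95% interval −0.45 to 0.78). On these probe sets both genes overlapped between at least 2 of the populations. A dimmer Psmd4 probe set, on U74C, went the other way in IKDC minus cDC (−0.62, limma adjusted p = 0.626). There both IKDC samples (80.5 and 73.5) were below both cDC samples (188.0 and 84.3). Of these signals only the 188.0 exceeded the 148.7 of the bacterial controls. Psmd2, the other large scaffold, did not reach the signal minimum on enough arrays.

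The lid, which positions and deubiquitinates substrates, had a median of −0.14 log2 units in IKDC versus cDC (2 genes above and 6 below 0), −0.17 in PDC versus cDC (1 above, 7 below) and 0.037 in IKDC versus PDC (4 above, 4 below; −0.038 with quantile normalization). None of its 10 tested probe sets passed, against 3.65% to 5.6% of all probe sets. Psmd14, the deubiquitinase of the lid, had signals of 623.4 and 702.6 in IKDC, 274.9 and 566.2 in PDC, and 356.3 and 455.4 in cDC. Both IKDC samples were above all others (0.69 ± 0.34 against cDC, limma adjusted p = 0.308; 0.72 against PDC, limma adjusted p = 0.376). Psmd12, a lid scaffold subunit, had 237.9 and 237.2 in IKDC, 77.6 and 195.5 in PDC, and 53.0 and 195.7 in cDC. Here too replicate 1 of PDC and of cDC were the low samples (IKDC minus cDC 1.07 ± 0.51, limma adjusted p = 0.29). Psmd7 stayed within a narrow range, with 352.3 and 370.6 in IKDC, 283.2 and 407.1 in PDC, and 403.1 and 407.1 in cDC (IKDC minus cDC −0.16, 95% interval −0.78 to 0.47).

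Psmd5, Psmd9 and Psmd10 encode chaperones that help assemble the base and are not part of the finished complex. Psmd5 had signals of 629.9 and 351.4 in IKDC, 290.0 and 582.0 in PDC, and 156.7 and 265.2 in cDC on U74A. Both IKDC and both PDC samples were above cDC, by 1.14 ± 0.40 in IKDC (limma adjusted p = 0.145) and 0.96 in PDC (limma adjusted p = 0.293). A second Psmd5 probe set, on U74B, gave −0.24 and −1.05 for the same differences. Psmd9 differed by −0.36 in IKDC minus cDC. Psmd10 had signals of 337.4 and 209.4 in IKDC, 204.8 and 53.8 in PDC, and 259.6 and 241.1 in cDC on its brighter probe set, on U74C. Both PDC samples were the lowest there (IKDC minus PDC 1.18, limma adjusted p = 0.375; PDC minus cDC −1.10, limma adjusted p = 0.412), with IKDC minus cDC at 0.084. The dimmer Psmd10 probe set, on U74A, gave 0.99 in IKDC minus PDC, 0.033 in PDC minus cDC and 1.02 in IKDC minus cDC. None of the 5 tested chaperone probe sets passed in any comparison, against 3.65% to 5.6% of all probe sets.

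Activators that can replace the regulatory cap gave no call either. Psme1, a subunit of the interferon-inducible activator, had signals of 1038.8 and 981.4 in IKDC, 1164.5 and 1247.4 in PDC, and 1291.8 and 1147.9 in cDC. IKDC were the lowest 2 samples, but by little (IKDC minus cDC −0.27, 95% interval −0.82 to 0.29), and PDC and cDC overlapped (−0.015). Psme3, of the nuclear activator, had 108.7 and 317.7 in IKDC, 16.3 and 134.8 in PDC, and 121.7 and 162.2 in cDC. The replicates of IKDC and of PDC differed widely, so its 1.55 in IKDC minus PDC did not pass (limma adjusted p = 0.283).

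Psme4 encodes a large single-chain activator known for histone turnover. On its U74C probe set the signals were 254.1 and 227.0 in IKDC, 49.9 and 44.3 in PDC, and 96.0 and 101.2 in cDC. The 3 populations did not overlap. Only the IKDC signals exceeded the 148.7 that unspiked bacterial controls reached on U74C, so the size of the gap is uncertain and no fold is given. The fitted difference in IKDC minus PDC, 2.02 ± 0.51 log2 units, did not pass (limma adjusted p = 0.0536). It passed the threshold with a pseudocount of 64 (limma adjusted p = 0.0493), with median centring (0.0457) and without the intensity trend (0.042), and its adjusted p was 0.0574 to 0.299 in the other settings run. The U74A probe set of Psme4 gave 219.1 and 235.3 in IKDC, 98.4 and 225.6 in PDC, and 129.3 and 187.4 in cDC. There IKDC and PDC overlapped, and the difference was 0.55 (95% interval −0.28 to 1.38).

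**Figure D3:**
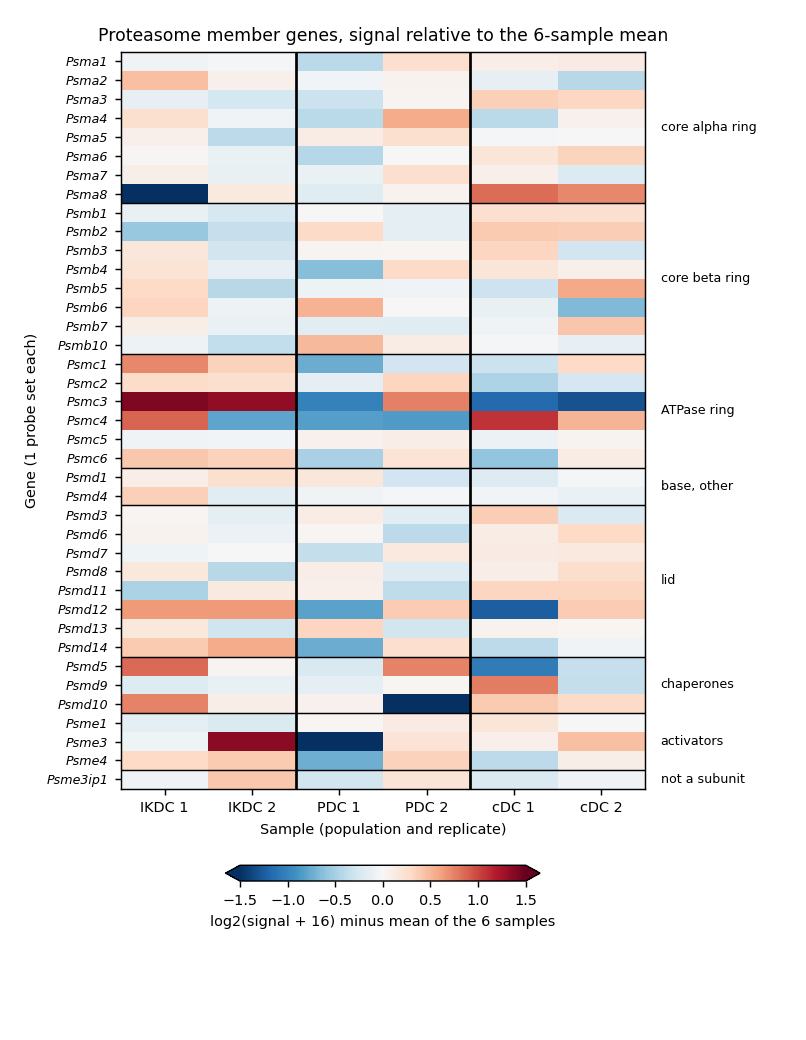
Log2(signal + 16) of the 39 tested member genes (rows, 1 probe set each, grouped by role) in each of the 6 samples (columns), as the difference from the gene's mean over the samples; red is higher and blue lower. Most rows are pale, Psmc3 is dark red in both IKDC samples, and several rows of the ATPase ring are blue in PDC replicate 1 and cDC replicate 1.

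Much of the variation among members lay between samples of 1 population and between probe sets of 1 gene. The median absolute difference between the 2 samples of a population was 0.29 log2 units in IKDC, 0.45 in PDC and 0.22 in cDC over the 57 member probe sets, against 0.35, 0.48 and 0.41 over all probe sets. Of 12 genes with several tested probe sets, 9 had differences of opposite sign in IKDC versus cDC, 9 in PDC versus cDC and 7 in IKDC versus PDC. The median range between probe sets of 1 gene was 0.96, 0.85 and 0.60 log2 units in that order. Psmd11, a lid subunit, is an example within U74A. Its 3 probe sets gave −0.49, 0.56 and −1.04 in IKDC minus cDC. Probe sets of 1 gene share a target and are not independent measurements of the populations.

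**Figure D4:**
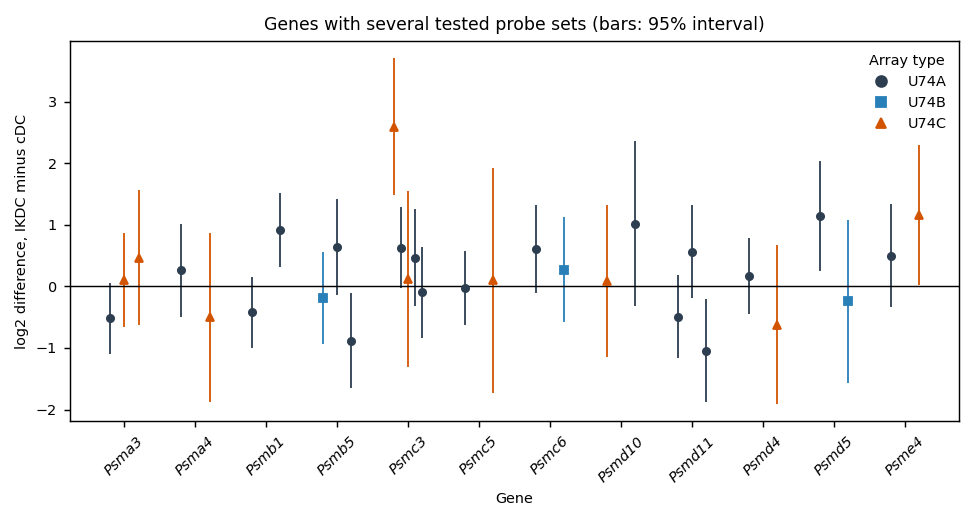
Log2 difference in IKDC minus cDC (y axis) of every tested probe set of the 12 member genes with more than 1 (x axis), with 95% intervals as bars and array types by symbol and colour. Psmc3 has 1 probe set at 2.60 and 4 between −0.097 and 0.63, and Psmb1, Psmb5 and Psmd11 have points on both sides of 0.

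Other genes of the pathway were read from lists of non-members. Of 6 tested genes for assembly of the core and its inhibitor Psmf1, none passed in IKDC versus cDC or PDC versus cDC on the brightest probe set, and 1 was lower in IKDC versus PDC. That was Pomp, the chaperone that matures the beta rings, with 384.2 and 306.0 in IKDC, 681.3 and 803.3 in PDC, and 661.0 and 662.7 in cDC. Both IKDC samples were well below the other 4, and Pomp fell by 1.07 ± 0.27 log2 units relative to PDC (limma adjusted p = 0.047). Against cDC its difference of −0.92 did not pass (limma adjusted p = 0.079). The dimmest probe set of Psmg3, another core chaperone, was lower in IKDC than in cDC (limma adjusted p = 0.036). It had 25.6 and 30.7 in IKDC, both under 60, with 97.4 and 92.7 in PDC, and 163.6 and 85.9 in cDC. The brightest had −0.92 (limma adjusted p = 0.238). The third, on U74C, was nearly level, with 172.2 and 178.7 in IKDC and 188.1 and 182.3 in cDC (−0.072, limma adjusted p = 0.954).

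Among 5 genes of the regulator list, Nfe2l1, given because it is the known regulator and chosen after its values were seen, had signals of 185.9 and 234.8 in IKDC, 310.5 and 282.4 in PDC, and 324.0 and 294.5 in cDC. Both IKDC samples were the lowest on this brighter probe set, without passing (IKDC minus cDC −0.53, limma adjusted p = 0.349). On its other tested probe set Nfe2l1 had 19.4 and 90.9 in IKDC, 123.8 and 75.0 in PDC, and 73.8 and 21.3 in cDC, with IKDC and cDC overlapping (0.088). Stat3, a cytokine-activated transcription factor, was the 1 gene of that list that passed. Its brightest probe set, on U74C, had 2003.0 and 2024.5 in IKDC, 837.4 and 842.0 in PDC, and 465.5 and 694.5 in cDC. Stat3 was higher in IKDC than in cDC by 1.80 ± 0.28 (limma adjusted p = 0.004) and than in PDC by 1.25 (limma adjusted p = 0.031) on that probe set, and its 3 other probe sets did not pass. In IKDC minus cDC those gave −0.27, with both IKDC samples below both cDC samples, 0.14 and −0.54. The direction for Stat3 therefore depended on the probe set.

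In the list of 9 tested shuttle factors and parts of the p97 unfolding complex, 1 gene passed, lower in PDC than in cDC. Ubqln1, which delivers ubiquitinated proteins to the proteasome, had 391.9 and 343.3 in IKDC, 131.3 and 207.6 in PDC, and 546.3 and 510.5 in cDC on its brightest probe set. The 3 populations did not overlap, and Ubqln1 fell by 1.58 ± 0.37 log2 units in PDC relative to cDC (limma adjusted p = 0.04) on that probe set. Its 2 further probe sets did not show this fall, with −0.087 (95% interval −0.93 to 0.76) and 0.14 (95% interval −0.64 to 0.91). None of 5 genes for proteasome-bound deubiquitinases, ligases and the lid protein Sem1 passed. Sem1 had 497.2 and 432.0 in IKDC, 615.1 and 576.3 in PDC, and 777.5 and 479.1 in cDC. Uba6, a ubiquitin-activating enzyme and the 1 gene of its list that was measured, had 377.5 and 490.1 in IKDC, 120.3 and 277.1 in PDC, and 184.0 and 220.8 in cDC on its brightest probe set (IKDC minus cDC 1.04, limma adjusted p = 0.18). Its 2 other tested probe sets gave −1.22, with both IKDC samples below both cDC samples (limma adjusted p = 0.231), and −0.23, so Uba6 has no settled direction.

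Coverage of the members was uneven across the arrays. Of the 57 tested probe sets 47 had a signal of 60 or more on all 6 arrays, 6 on 5, 1 on 4 and 3 on 3. The 14 probe sets not tested belonged to 12 genes, and their signals ran from 0.6 to 93.5. For Psmb11, Psmd2 and Psmc3ip no probe set was tested. Psma4, Psma8, Psmc4, Psmc5, Psmd5, Psmd10, Psmd12, Psme3 and Psme4 each had a tested probe set under 60 in at least 1 sample. A probe set that met the minimum only through the samples in which it was high had to differ, so the counts describe the tested members and not every member.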

How the data were processed

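Per the labels, the authors scanned each array with GCOS 1.1.1 at default settings and deposited signal intensity values scaled to a target of 150; the submitters' processing notes name MAS 5. Per the labels' protocols, RNA was amplified in a pair of rounds. Samples were grouped by title. The fit used log2(signal + 16), so that changes of dim probe sets are understated, after a minimum of 60 on at least 2 of 6 arrays. Each array type was fitted separately in limma 3.58.1 (R 4.3.3; lmFit, eBayes with intensity trend, 3 populations in 1 model), with Benjamini-Hochberg adjustment across the 23285 tested probe sets and a threshold of 0.05. The fit was tested on simulated data. The number of arrays limits the precision. Levels are not compared between probe sets. Of 36701 probe sets 29131 had 1 symbol in the platform annotation, 724 several and 6846 none.

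Members, gene lists and tests were chosen with earlier results of these data known. The text names every member gene that passed, the catalytic and interferon-inducible members, and from each list of other genes up to 4 that passed, or the brightest. A gene is represented by its tested probe set with the highest mean signal. Alternatives changed the pseudocount, signal minimum, normalization, samples, variance trend, adjustment, probe sets per gene and replicate block, or left out each sample.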

Additional observations from a re-analysis of the deposited data

How the results depend on the processing

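The count of member probe sets that passed in IKDC versus cDC, 1 (Psmc3), was 2 with only these 2 populations in the fit (Psmd11, Psmc3) and with adjustment within array type (Psmb1 at limma adjusted p = 0.0482, Psmc3), 0 without the intensity trend, and 0 to 2 when samples were left out in turn: 0 without either IKDC or either cDC sample and 2 without PDC replicate 2. Psmc3 kept its positive difference, at 2.29 to 2.73, in all settings run, and where its call held the limma adjusted p was 0.00191 to 0.0368. In PDC versus cDC the count of 0 was 0 to 1 when samples were left out, Psmc3 passing without PDC replicate 1. In IKDC versus PDC the count of 0 was 1 (Psme4) with a pseudocount of 64 (limma adjusted p = 0.0493), median centring (0.0457) or no trend (0.042), 1 (Psme3) with the replicate block, and 0 to 2 when samples were left out, with Psme3 and Psmc3 passing without PDC replicate 2. The cause of these changes was not tested. The median difference of members in IKDC versus cDC changed sign to −0.0691 without the filter and −0.0898 with 1 probe set per gene, and ran from −0.0971 to 0.134 when samples were left out. Left-out samples gave −0.213 to 0.0343 in PDC versus cDC and 0.00872 to 0.205 in IKDC versus PDC. Several of these shifts exceeded the 0.109 spread (SD) of the member median between samples of a population. The labels do not tie equal replicate numbers together, and deviations of same-numbered samples correlated at −0.0862 to 0.236. The replicate block left the count at 1 in IKDC versus cDC and at 0 in PDC versus cDC. On U74C 75.6% and on U74B 88.9% of bacterial control signals were under 60, against 100% on U74A, so dim members of U74C are the least certain.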
